A study of Drosophila melanogaster with 12 samples.

Results

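LanA and alpha-Spec are 2 of the 16637 transcripts measured on arrays in whole Drosophila melanogaster flies, and they were taken by their deposited identifiers, FBtr0077014 for LanA and FBtr0072789 for alpha-Spec. The flies came from 6 experimentally evolved populations, of which 3 had been kept for 65 generations under monogamy and 3 under polygamy. Each population gave 1 array of virgin males and 1 of virgin females aged 4 days, so that the 4 groups were monogamy males, polygamy males, monogamy females and polygamy females, with 3 arrays each. All samples share the genetic background that the labels call IV and standard cornmeal medium, and each array was hybridised with Cy3-labelled total RNA. The replicate is the evolved population, and the number of flies behind an array is not given in the sources used here. Monogamy removes competition for mates, and the design asks how expression evolved without it in each sex.

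LanA encodes an alpha chain of laminin, a cross-shaped trimer of an alpha, a beta and a gamma chain that is secreted and builds the basement membrane, the sheet of extracellular matrix under epithelia and around muscle, fat body and gonads. The alpha chain carries the sites by which laminin binds integrins and dystroglycan on cells. alpha-Spec encodes alpha-spectrin, which pairs with a beta-spectrin to form the flexible, actin-linked network under the plasma membrane, and in the fly germ line it is also a component of the fusome, the organelle that joins dividing germ cells. Expression values are log2 intensities as deposited, and a difference of 1 is a doubling. In whole flies, fewer cells of a type and less RNA per cell cannot be told apart. A set of 24 other genes of the basement membrane, the laminin receptors and the spectrin skeleton could not be described beside them, because 0 of the 24 were paired with a deposited identifier.

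Among the arrays, 2 stood apart from the others of their sex. Polygamy female 3 correlated with the other females at a mean of 0.733, against 0.894 to 0.924 for those, and its 5th percentile lay at 5.42, against 4.30 to 4.43. Monogamy male 1 correlated with the other males at 0.925, against 0.958 to 0.969. Some results are therefore also given without these arrays, singly or together. Both transcripts lay above the 5th percentile of every array, which was 5.42 or lower.

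LanA was lower in males than in females in 5 of 6 populations, by about 1 on the log2 scale. It was also lower on average under monogamy than under polygamy in both sexes. Neither difference passed the test over all transcripts in the fit of the 4 groups, and the populations of a regime differed among themselves by as much. With the population as a block, which pairs its arrays, the sex difference passed (limma, adjusted p = 0.0178), as did 54.3% of all transcripts. That call was lost when some single populations were left out. alpha-Spec, by contrast, had nearly the same value in 11 of the 12 arrays and a low value in polygamy female 3 alone.

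**Figure D1:**
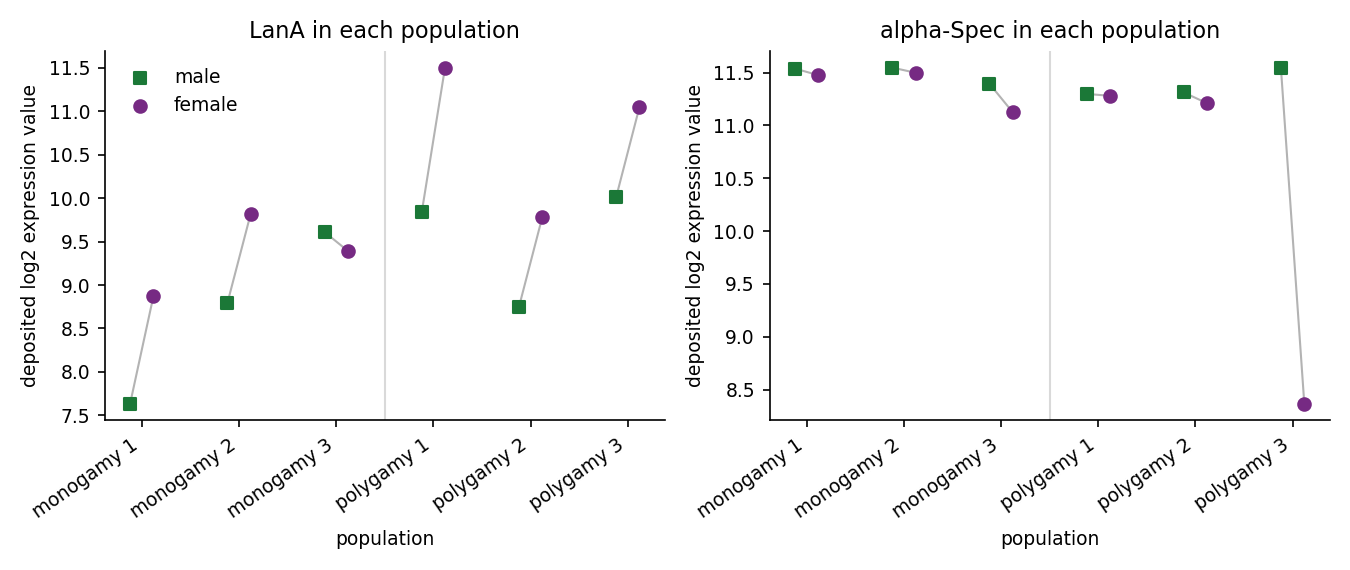
Deposited log2 expression value of LanA (left panel) and alpha-Spec (right panel) in each of the 6 populations, with 1 male array (square) and 1 female array (circle) per population joined by a line. The female value of LanA was the higher one in every population except monogamy 3, while alpha-Spec lay between 11.12 and 11.55 in all arrays except polygamy female 3 (8.37).

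LanA measured 7.63, 8.79 and 9.61 in monogamy males 1, 2 and 3, and 9.84, 8.74 and 10.01 in polygamy males 1, 2 and 3. It measured 8.87, 9.82 and 9.39 in monogamy females 1, 2 and 3, and 11.51, 9.78 and 11.05 in polygamy females 1, 2 and 3. Monogamy male 1 was the lowest of the 12 arrays, polygamy females 1 and 3 were the highest, and every pair of groups with a sex or a regime in common overlapped. Among all transcripts the sexes did not overlap in 34.0%, the regimes did not overlap in males in 7.75% and in females in 38.2%. The group means were 8.68 ± 0.99 in monogamy males, 9.53 ± 0.69 in polygamy males, 9.36 ± 0.47 in monogamy females and 10.78 ± 0.89 in polygamy females (SD, n = 3 each). From the highest mean to the lowest, the order was polygamy females, polygamy males, monogamy females and monogamy males, and the values of each group overlapped those of the next in that order.

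The first comparison asks how LanA differs between the sexes whatever the regime. The mean over 6 arrays was 9.10 ± 0.89 (SD) in males, against 10.07 ± 1.01 (SD) over 6 arrays in females. The difference of -0.97 (SE 0.42, 95% confidence interval -1.89 to -0.05) is a 1.95-fold lower level in males and did not pass in the fit of the 4 groups (limma, adjusted p = 0.0699). In this comparison 55.9% of all transcripts passed at an adjusted p under 0.05, 21.3% with a higher and 34.6% with a lower level in males, and the median absolute difference over all transcripts was 0.92, so LanA lay near the middle of the table.

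The labels give both arrays of a population 1 subject, so the male and the female value form a pair. Male minus female was -1.24, -1.03 and 0.22 in monogamy populations 1, 2 and 3. It was -1.67, -1.03 and -1.04 in polygamy populations 1, 2 and 3. Monogamy 3 alone had the higher value in males, and 4 of the other 5 differences lay close together, between -1.03 and -1.24. A difference below 0 in at least 5 of 6 populations was found in 50.9% of all transcripts.

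With the population as a block the same difference of -0.97 had an SE of 0.25 (95% confidence interval -1.57 to -0.36) and passed (limma, adjusted p = 0.0178), as did 54.3% of all transcripts in that fit, 33.8% with a lower level in males. The blocked call was lost without population monogamy 1 (adjusted p = 0.0690), monogamy 2 (adjusted p = 0.0751) or polygamy 1 (adjusted p = 0.0643), and held without monogamy 3 (adjusted p = 0.0110), polygamy 2 (adjusted p = 0.0316) or polygamy 3 (adjusted p = 0.0157). The exact two-sided sign-flip permutation test of the 6 differences gave p = 0.0625, and 0.0312 is the smallest p that 6 populations can give.

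Without a block the call was also sensitive to single arrays. It passed without monogamy male 3 (-1.20, adjusted p = 0.0316) and without polygamy female 2 (-1.22, adjusted p = 0.0240), as well as after quantile normalization over all arrays (-1.11, adjusted p = 0.0404). Without polygamy female 3 the difference was -0.90 (adjusted p = 0.103), and without monogamy male 1 it was -0.70 (adjusted p = 0.151). Without both arrays it was -0.64 (adjusted p = 0.191).

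Within polygamy, the sex difference of LanA was -1.25 (SE 0.59, 95% confidence interval -2.55 to 0.05, adjusted p = 0.108, limma), where 42.4% of all transcripts passed, 18.8% higher and 23.6% lower in males. With the population as a block this difference passed (adjusted p = 0.0329), beside 40.0% of all transcripts, 22.3% with a lower level in males. That call was lost without monogamy 1 (adjusted p = 0.0511), monogamy 2 (adjusted p = 0.0657), polygamy 1 (adjusted p = 0.150) or polygamy 2 (adjusted p = 0.0640). With no block it passed without polygamy female 2, at -1.75 (adjusted p = 0.0349), and without polygamy female 3 it was -1.11 (adjusted p = 0.191). Within monogamy the difference was -0.68 (SE 0.59, 95% confidence interval -1.99 to 0.62, adjusted p = 0.395), where 38.4% of all transcripts passed, 15.0% higher and 23.4% lower in males. Its size moved with single arrays. It was -0.16 without monogamy male 1, -1.15 without monogamy male 3 and -0.46 without monogamy female 2. The difference between the regimes in this sex difference is the interaction, which was 0.56 (SE 0.83, limma, adjusted p = 0.881). No transcript passed for the interaction (limma, 0%), and 593 had an unadjusted p under 0.05, so a different sex difference under the 2 regimes was not shown for LanA. The interaction moved between 0.10 without monogamy male 3 and 1.09 without monogamy male 1, and passed in neither case. Its value was 1.06 without polygamy female 2, 0.17 without polygamy male 2, 0.20 without polygamy female 1 and 0.32 without monogamy female 1.

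The comparison of regimes asks whether LanA evolved a different level under monogamy. In females the means given above were 9.36 under monogamy and 10.78 under polygamy. The difference of -1.42 (SE 0.59, 95% confidence interval -2.72 to -0.11), 2.67-fold lower under monogamy, did not pass (limma, adjusted p = 0.152), and 0.0601% of all transcripts did. Its size exceeded that of 83.8% of all transcripts, and 4824 transcripts (29.0%) had an unadjusted p under 0.05 (limma). A monogamy female was lower than a polygamy female in 8 of the 9 possible pairs, the exception being monogamy female 2 (9.82) against polygamy female 2 (9.78), and the exact two-sided permutation p was 0.2, where 0.1 is the smallest possible. Without polygamy female 3 the difference was -1.28 (adjusted p = 0.240). Leaving out 1 array at a time, this difference ranged from -1.91 to -1.05 (limma, adjusted p from 0.0556 to 0.399) and never passed.

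In males the means were 8.68 under monogamy and 9.53 under polygamy. The difference was -0.85 (SE 0.59, 95% confidence interval -2.15 to 0.45, limma, adjusted p = 1.00), with monogamy lower in 7 of 9 pairs and an exact two-sided permutation p of 0.3. Among all transcripts 0% passed in males (limma), and 220 had an unadjusted p under 0.05. Without monogamy male 1 the value was -0.33, and without monogamy male 3 it was -1.32, neither of which passed.

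When both sexes of each population were averaged first, LanA stood at 9.02 ± 0.67 in the monogamy populations, against 10.15 ± 0.78 in the polygamy ones (mean ± SD of 3 populations). The difference was -1.13 (SE 0.49, 95% confidence interval -2.31 to 0.04, limma, adjusted p = 0.318), and 0% of all transcripts passed, with 2511 at an unadjusted p under 0.05. Leaving out 1 population at a time, this difference ranged from -1.58 to -0.75 (limma, adjusted p from 0.150 to 0.678). Without population monogamy 1 the difference was -0.75 (adjusted p = 0.678), and without monogamy 1 and polygamy 3 it was -0.56 (adjusted p = 0.829).

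**Figure D2:**
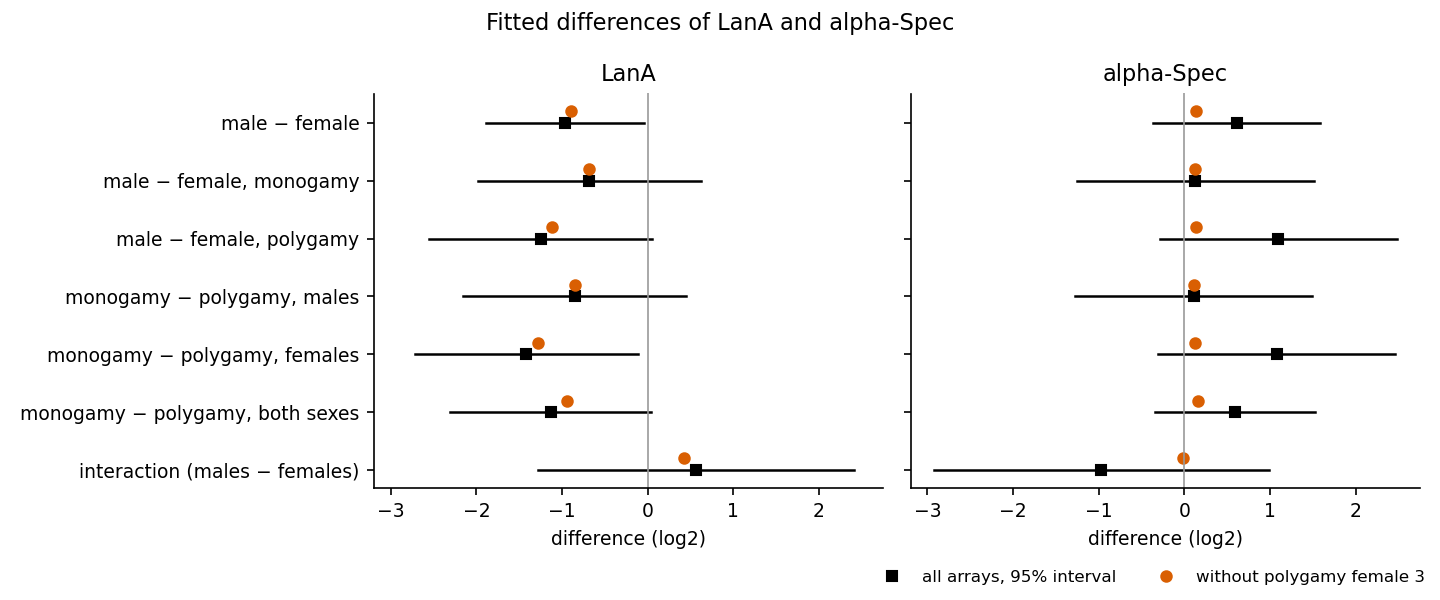
Differences of LanA (left panel) and alpha-Spec (right panel) on the log2 scale from the fit over all transcripts, with the male and the monogamy value first in each difference. Squares and lines give the estimate and its 95% confidence interval over all arrays, and circles give the estimate without polygamy female 3 (for the difference over both sexes, without population polygamy 3). The intervals of LanA for male minus female over both regimes and for regime in females lie below 0. These intervals are unadjusted, and neither difference passed after adjustment. An unadjusted p under 0.05 (limma) was found in 61.1% of all transcripts for sex and in 29.0% for regime in females. Every circle of alpha-Spec lies near 0.

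Single populations departed from the rest of their regime in LanA, and did so in both sexes. The mean of the male and the female value was 8.25, 9.30 and 9.50 in monogamy populations 1, 2 and 3, and 10.67, 9.26 and 10.53 in polygamy populations 1, 2 and 3. Polygamy 2 thus lay among the monogamy populations, and its male and female values (8.74 and 9.78) differed from those of monogamy 2 (8.79 and 9.82) by less than 0.05. Polygamy 1 and 3 formed the upper end and monogamy 1 the lower end. The regimes did not overlap in such population means in 24.3% of all transcripts.

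The departures had the same direction in both sexes. Set against the mean of its group, monogamy 1 deviated by -1.04 in males and -0.49 in females. Polygamy 2 deviated by -0.79 in males and -0.998 in females, polygamy 1 by 0.31 and 0.73, and polygamy 3 by 0.48 and 0.27. The deviations of monogamy 2 were 0.11 and 0.46, and those of monogamy 3 were 0.93 and 0.03. The sign was shared by the sexes in all 6 populations, which held for 3.29% of all transcripts.

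Over the 6 populations the male and female values of LanA had a Pearson r of 0.79 (exact permutation p = 0.0625, adjusted p = 0.250 over the 4 relations computed) and a Spearman rho of 0.77 (exact permutation p = 0.103, adjusted p = 0.411). Without the 2 populations farthest from the male median, monogamy 1 and polygamy 3, r was 0.54, and without monogamy 3 it was 0.97 (exact permutation p = 0.0250, unadjusted). An r as high was found in 3.82% of all transcripts, whose median was 0.24. These values pool both regimes, so the lower mean of LanA under monogamy in both sexes enters them beside the variation between populations. A regime holds 3 populations, too few for a value within it.

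The spread of LanA among the populations of a group was wide for this table. In males its pooled SD was 0.85, above that of 87.2% of all transcripts, whose median was 0.37. In females it was 0.72, above that of 63.9%, where the median of all transcripts was 0.56. Over all groups the pooled SD of LanA was 0.79, above that of 72.5%. Without polygamy female 3 it was 0.83, above that of 90.7%, where the median of all transcripts was 0.37. Within the arrays LanA lay between the 26.5th percentile of the intensities in monogamy male 1 and the 69.5th in polygamy female 1, which places an intensity within its array and does not measure abundance.

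The transcripts most like LanA were chosen by their correlation with it over these arrays, so that they follow the same populations comes from the choice. Among the 43 other identifiers with a gene symbol, the highest Pearson correlations over the 12 arrays were 0.95 for the transcript shared by Pbp49, a subunit of the complex that activates transcription of small nuclear RNA genes, and CG42516, 0.93 for sle, a nucleolar protein, and 0.90 for the transcript shared by CG42497 and Tim10, a chaperone of protein import into mitochondria. The unnamed transcript of the highest correlation was FBtr0113334 (0.98). These values share arrays, sex and normalization, and 376 transcripts (2.26%) reached 0.9 or more. Without polygamy female 3 the 4 correlations were 0.94, 0.94, 0.88 and 0.98.

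sle measured 6.86 in monogamy male 1, and its group means were 8.43 ± 2.11 in monogamy males, 10.21 ± 1.77 in polygamy males, 9.04 ± 1.07 in monogamy females and 12.01 ± 0.99 in polygamy females (SD, n = 3 each). The order of the 4 group means of sle was that of LanA, which the other 2 named transcripts did not share. The transcript of Pbp49 and CG42516 averaged 10.72 in polygamy males, below 10.85 in monogamy females, and that of CG42497 and Tim10 averaged 11.70 in monogamy males, above 11.57 in monogamy females. Pbp49 and CG42516 stood at 8.47 in monogamy male 1 and at 13.25 in polygamy female 3, which are the arrays that stood apart.

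**Figure D3:**
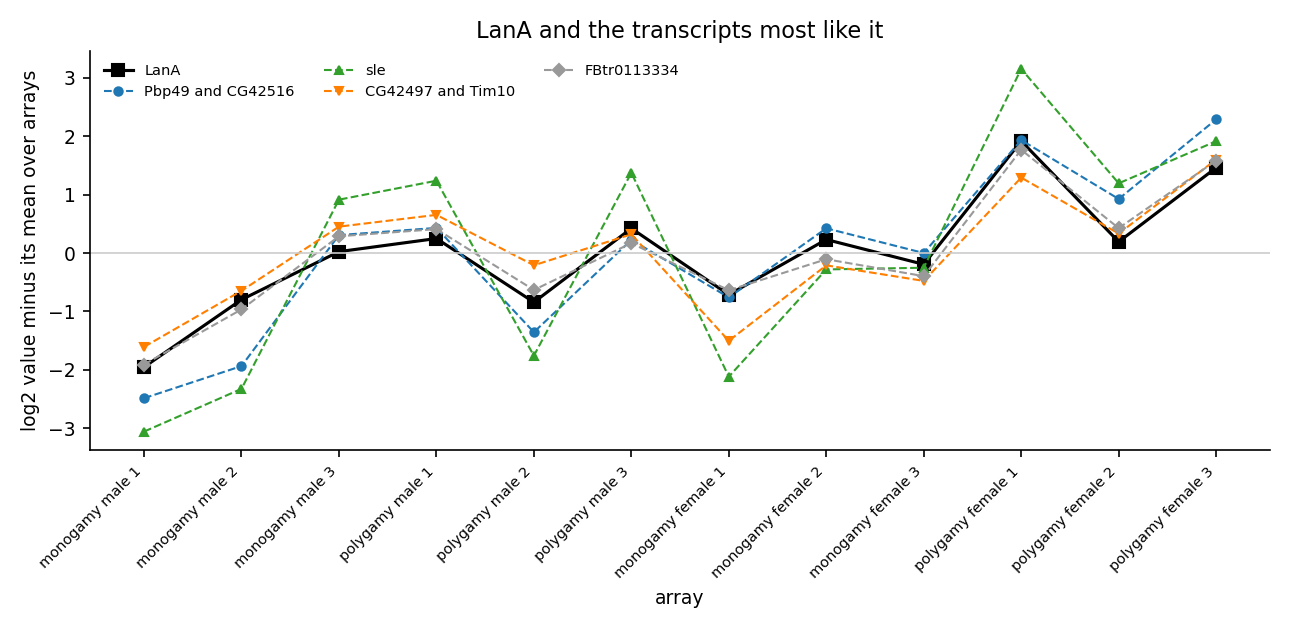
Log2 values of LanA (black squares), of the 3 named and of the 1 unnamed transcript most like it, each minus its own mean over the 12 arrays (vertical axis), by array (horizontal axis). All 5 lines are low in monogamy male 1 and high in polygamy females 1 and 3, and all 5 are lower in polygamy male 2 than in the other polygamy males.

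alpha-Spec measured 11.54, 11.55 and 11.39 in monogamy males 1, 2 and 3, and 11.30, 11.31 and 11.54 in polygamy males 1, 2 and 3. It measured 11.47, 11.50 and 11.12 in monogamy females 1, 2 and 3, and 11.28, 11.21 and 8.37 in polygamy females 1, 2 and 3. Polygamy female 3 was far below every other array, and the remaining 11 arrays spanned 0.42. The group means were 11.49 ± 0.09 in monogamy males, 11.38 ± 0.14 in polygamy males, 11.37 ± 0.21 in monogamy females and 10.29 ± 1.66 in polygamy females (SD, n = 3 each). Neighbours in this order overlapped, and without polygamy female 3 the mean of the other 2 polygamy females was 11.24.

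alpha-Spec was among the steadiest transcripts of the table outside that array. In males its pooled SD was 0.11, below that of all but 5.64% of transcripts. Over all groups without polygamy female 3 it was 0.14, and 5.84% of transcripts had a smaller SD. With polygamy female 3 it was 0.84, above that of 76.2%. alpha-Spec lay between the 62.6th and the 71.4th percentile of the intensities in 11 arrays and at the 29.5th in polygamy female 3.

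The low value of polygamy female 3 was set beside transcripts of like level in the same array. alpha-Spec lay 2.91 below the median of the other females there, with a shift of -2.91. The 1000 transcripts nearest to it in that median had quartiles of -1.40 and 0.49 and a median shift of -0.47, and 7.50% of them had a lower shift than alpha-Spec. LanA moved the other way in this array, with a shift of 1.27, and 17.0% of the 1000 transcripts nearest to it had a higher one. Shifts of LanA in the other arrays, each against the rest of its sex, ran from -1.98 in monogamy male 1 to 1.73 in polygamy female 1. The shifts of alpha-Spec in the other 11 arrays lay between -0.24 and 0.29. The part of the raised dim end of polygamy female 3 in the low value of alpha-Spec was not tested.

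**Figure D4:**
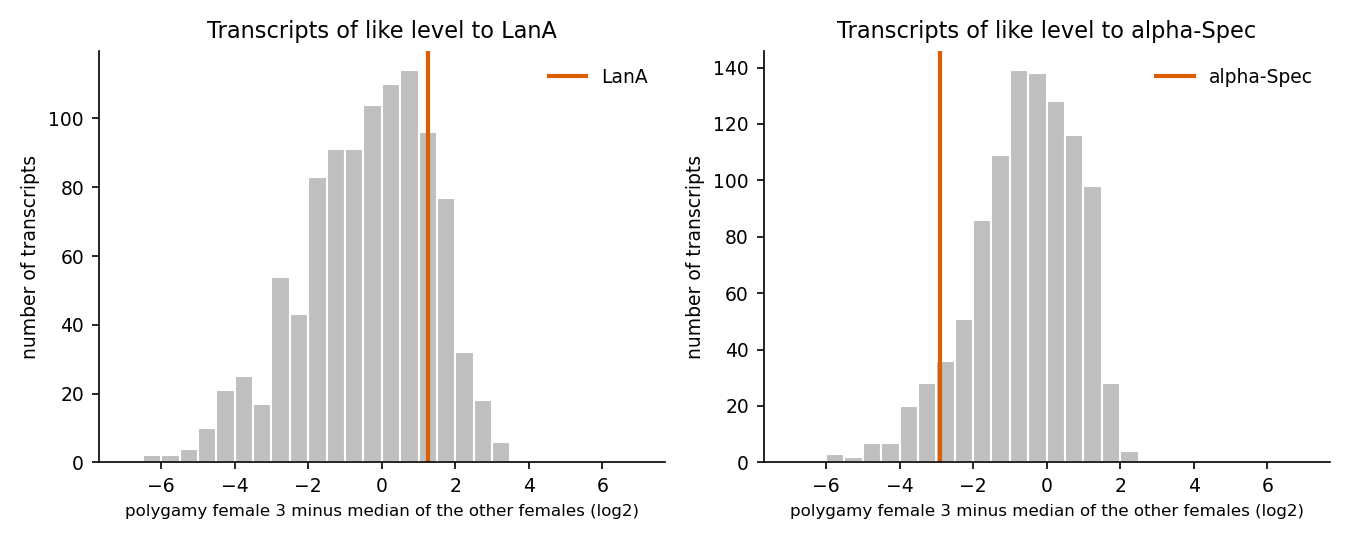
Distribution over transcripts of the value in polygamy female 3 minus the median of the other 5 females (log2, horizontal axis) for the 1000 transcripts nearest in level to LanA (left panel) and to alpha-Spec (right panel), with the number of transcripts on the vertical axis. The vertical line marks LanA at 1.27 and alpha-Spec at -2.91, on opposite sides of 0 and both within the range of transcripts of like level.

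Between the sexes, the mean of alpha-Spec over 6 arrays was 11.44 ± 0.12 (SD) in males, against 10.83 ± 1.21 (SD) over 6 arrays in females. The difference of 0.61 (SE 0.44, 95% confidence interval -0.37 to 1.59) did not pass (limma, adjusted p = 0.257). Without polygamy female 3 it was 0.13 (SE 0.13, 95% confidence interval -0.15 to 0.42, limma, adjusted p = 0.379), so that the interval reached no more than 0.42 in size. Male minus female was 0.06, 0.05 and 0.27 in monogamy populations 1, 2 and 3, and 0.02, 0.10 and 3.17 in polygamy populations 1, 2 and 3. The male value was the higher one in 6 of 6 populations, which held for 21.6% of all transcripts (the female value was the higher one in all 6 in 30.6%), and the median difference was 0.08.

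The exact two-sided sign-flip permutation test over the populations gave p = 0.0312, the smallest that 6 populations allow. The sign was also shared by 6 of 6 populations after quantile normalization over all arrays and after centring arrays on their median. Without population polygamy 3 the mean difference was 0.10 and the exact permutation p was 0.0625, the smallest that 5 populations allow. All but 1 of the differences were thus small, and their direction was the same.

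Within polygamy the sex difference of alpha-Spec was 1.10 (SE 0.63, limma, adjusted p = 0.174), and within monogamy it was 0.13 (SE 0.63, limma, adjusted p = 0.897). Both SEs come from the spread shared by all groups, polygamy female 3 included. With only the monogamy arrays fitted, the difference of 0.13 had an SE of 0.19 and did not pass (limma, adjusted p = 0.598). Without polygamy female 3 the polygamy value was 0.14 (adjusted p = 0.563), close to that of monogamy. Within monogamy the value was 0.01 without monogamy female 3 and 0.19 without monogamy female 2. It was 0.23 after quantile normalization over all arrays, 0.20 after that within each sex and 0.28 after cyclic loess within each sex, and passed under none of these. The interaction of -0.97 (SE 0.88, limma, adjusted p = 0.862) became -0.01 without polygamy female 3 and -1.47 without polygamy female 1. With the population as a block it was -1.51 without population polygamy 1 and -1.47 without polygamy 2, and none of these values passed.

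Between the regimes, the means of alpha-Spec in females were 11.37 under monogamy and 10.29 under polygamy, a difference of 1.08 (SE 0.63, 95% confidence interval -0.30 to 2.46, limma, adjusted p = 0.258). Without polygamy female 3 it was 0.12 (95% confidence interval -0.30 to 0.55, adjusted p = 0.668). In males the means were 11.49 under monogamy and 11.38 under polygamy, a difference of 0.11 (SE 0.63, limma, adjusted p = 1.00) that was 0.07 without polygamy male 1 and 0.19 without polygamy male 3. The fit shares 1 spread over all groups, and the SE in males was 0.17 without polygamy female 3. A monogamy array was lower than a polygamy array in 2 of 9 pairs in each sex, and the exact two-sided permutation p was 0.3 in both.

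With both sexes of a population averaged, alpha-Spec stood at 11.43 ± 0.15 in the monogamy populations, against 10.83 ± 0.76 in the polygamy ones (mean ± SD of 3 populations). The difference was 0.60 (SE 0.39, limma, adjusted p = 0.380) with all populations and 0.15 (adjusted p = 0.644) without polygamy 3. Apart from polygamy 3, whose mean of the sexes was 9.95, the population means ran from 11.26 in monogamy 3 and polygamy 2 to 11.52 in monogamy 2.

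The male and female values of alpha-Spec over the 6 populations had a Pearson r of -0.33 (exact permutation p = 0.803, adjusted p = 0.803) and a Spearman rho of 0.20 (exact permutation p = 0.714, adjusted p = 1.00). Without polygamy 3, r turned to 0.80 (exact permutation p = 0.158). Without the 2 populations farthest from the male median, polygamy 1 and 2, r was -0.20.

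LanA and alpha-Spec were not shown to vary together among populations. In males r was -0.32 (exact permutation p = 0.560, adjusted p = 0.746) and rho was -0.03 (exact permutation p = 1.00, adjusted p = 1.00). In females r was -0.49 (exact permutation p = 0.400, adjusted p = 0.746) and rho was -0.14 (exact permutation p = 0.803, adjusted p = 1.00). Without the 2 arrays farthest from the median of LanA, r was -0.44 in males and -0.20 in females, and in males it turned to 0.025 without monogamy 1. In females r was -0.89 without polygamy 1 (exact permutation p = 0.1) and -0.19 without polygamy 3 (exact permutation p = 0.833).

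The likeness of other transcripts to alpha-Spec over the 12 arrays was much lower without polygamy female 3. The highest correlations among the 43 other named identifiers were 0.98 for the transcript shared by Dpm2, a subunit of dolichol-phosphate mannose synthase, and CG12016, 0.96 for that of CG45085 and CG8026, and 0.92 for Fatp1, a fatty acid transport protein. In polygamy female 3 these measured 7.87, 9.59 and 10.12. Over all transcripts, 640 (3.85%) had a correlation of 0.9 or more with alpha-Spec. Without that array the 3 correlations were 0.56, 0.14 and 0.57, and that of the unnamed transcript of the highest correlation, FBtr0077477, was 0.76, against 0.99 with it.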

How the data were processed

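Each array's log2 values, as the authors deposited them, carry one number for every transcript, and RMA is the tool named per the submitters' processing notes. Which arrays RMA took together, and with which version and annotation, is not given in the sources used here. Of the 16637 FlyBase transcript identifiers, 44 matched a gene symbol in RefSeq's genes for Release 6, 16 of them a single gene. LanA has 1 and alpha-Spec 4 RefSeq transcripts, and other identifiers of these genes may be among the unmatched ones. No coordinates are given. The RNA-Seq of heads named in the design was not analysed here.

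No filter or normalization was added. All transcripts were fitted in R 4.3.3 with limma 3.58.1 (lmFit, eBayes) as 4 groups over 12 arrays, and p-values were adjusted by Benjamini-Hochberg over all transcripts, with a threshold of 0.05. For the regime difference over both sexes the male and female values of a population were averaged first. Exact permutation tests were run over populations or arrays. The fits were run on simulated data with independent noise in each array and no pairing. Of 100 transcripts changed by 1 (log2), 17% were recovered for sex, 5% for regime in females and 6% in males. For the interaction and for the regime difference over both sexes it was 0%. A difference of about 1 that did not pass is thus not shown to be absent. Far fewer transcripts were changed there than passed for sex in the data, so the shares do not carry over directly. The most alike transcripts were named by a rule: the 3 highest correlations among named identifiers and the highest unnamed one.

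The labels pair the male and the female array of a population by subject, and deviations from the group means correlated at 0.53, -0.07 and 0.40 in the monogamy populations and 0.09, 0.07 and -0.18 in the polygamy populations. Alternatives were the population as a block (random block with statmod 1.5.0), normalizations, a filter, another prior, fewer arrays and leaving out arrays. The members, lists and tests were chosen with earlier results of these data known. Arrays have no read depth, and their number limits the precision.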

Additional observations from a re-analysis of the deposited data

Results flagged for a closer look

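In each of 6 sets of 6 values, the most extreme value was compared with its nearest neighbour by Dixon's ratio of that gap to the whole range. Beyond the 95% critical value lay 3 of them, though about 1 set in 20 passes by chance and the sets share arrays. In females, alpha-Spec in polygamy female 3 (8.37) lay apart from the other females. The male minus female difference of alpha-Spec was likewise apart in population polygamy 3 (3.17), a 9.01-fold lower value in the same female array. For LanA, the male minus female difference of population monogamy 3 (0.22) lay above those of the other populations, all of which were below -1.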

How the results depend on the processing

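Over 20 results of LanA and alpha-Spec, 366 of 388 alternative values kept the direction and the side of the threshold. Most of these results did not pass with all arrays, so the count mostly says that they still did not pass. It does not measure size, and the sex difference of alpha-Spec, 0.61 with all arrays and 0.13 without polygamy female 3, counts as kept. The sign-flip test of alpha-Spec could not pass with 1 population left out, since 5 populations allow no p below 0.0625. The sex difference of LanA moved past the threshold after quantile normalization over all arrays (-1.11) and with the population as a fixed replicate block (-0.97), and its polygamy value did so with that block (-1.25). The block changed no other call of these transcripts, and with a random block 0 of them passed. The interaction of alpha-Spec turned to 0.067 without population polygamy 3, with or without the replicate block. Leaving out 1 array at a time, the LanA differences ranged from -1.22 to -0.70 for sex and from -1.75 to -0.86 for sex within polygamy. With the block, leaving out 1 population gave -1.19 to -0.83 (-1.02 without polygamy 2 and -1.02 without polygamy 3) and -1.35 to -1.04. The mean difference of alpha-Spec over populations ranged from 0.10 to 0.73. Leaving out 1 population, r of LanA between the sexes ranged from 0.66 to 0.97, that of alpha-Spec from -0.53 to 0.80, and r between LanA and alpha-Spec from -0.67 to 0.025 in males and from -0.89 to -0.19 in females. Over all transcripts, regime in females passed for 10 in the 4-group fit, 2080 without polygamy female 2 and 0 with the female arrays alone. The sex counts ran from 6497 to 11034 over all alternatives, from 2861 to 9446 within monogamy and from 3897 to 8846 within polygamy. Leaving out both arrays that stood apart, leaving out population polygamy 3 in both sexes, leaving out populations under the block or from the correlations, and the normalizations of the sex difference over populations were chosen after seeing the data. The cause was not tested.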
